A study of Mus musculus with 12 samples.

Results

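The 10 genes described here are regulators and markers of beige fat identity: Prdm16, Ebf2, Zfp516, Irf4 and Hlx, which promote the beige program, Zfp423 and Tle3, which hold fat cells in the white state, and Tbx1, Tmem26 and Tnfrsf9, which mark beige cells. They were taken by name from the 55401 genes counted by RNA-seq in scWAT, the fat under the skin. The 12 libraries came from 12 female mice, each individually caged and 16 weeks of age, and formed 4 groups of 3 mice. The genotypes were wild-type (WT, Jmjd1a +/+) and Jmjd1a HY/HY, shortened to HY/HY. Mice of each were kept at 30°C, the thermoneutral condition, or at 8°C, the cold condition, for 1 week, and every mouse had first spent 1 week at 30°C. The HY allele was introduced into C57BL/6J eggs by CRISPR-Cas9 and is carried in all cells of the animal. It encodes JMJD1A, a demethylase of histone H3 at lysine 9, with a tyrosine in place of a histidine, which inactivates the enzyme.

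Beige adipocytes are fat cells that appear within white fat during prolonged cold and burn fuel to make heat, largely through the uncoupling protein UCP1. Their identity is set by transcription factors and coregulators. EBF2 marks and commits precursors, PRDM16 drives the thermogenic program together with PPARγ, and ZFP516, IRF4 and HLX act at thermogenic genes. ZFP423 represses EBF2 in white adipocytes, and TLE3 is a corepressor that competes with PRDM16 for PPARγ. Whether the amounts of these RNAs move with cold and with the loss of demethylase activity is what the comparisons below measure.

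The libraries held 13592629 to 26352081 counts on the sense strand of genes (median 18130585), and all libraries of the cold groups were smaller than those kept at 30°C. Levels are given as CPM, read pairs per 1000000 counted, after scaling of the library totals by the TMM method, so levels of different genes are not corrected for transcript length and are compared here only within a gene. Kdm3a, the gene of JMJD1A, was present at 49.3 ± 11.2 CPM in WT mice and 45.5 ± 7.68 CPM in HY/HY mice at 30°C, and at 39.9 ± 3.78 and 44.8 ± 1.40 CPM at 8°C (mean ± SD, n = 3 here and throughout). The counts cannot separate the HY allele from the normal allele. The 8 adipocyte markers summed to 18052 to 55085 CPM over all libraries, so the labelled tissue was recognised in each of them. In bulk tissue, fewer cells of a type and less RNA per cell cannot be told apart. Markers of skeletal muscle summed to 1206 CPM in WT replicate 2 at 30°C and to at most 22.6 CPM in every other library. Markers of mammary epithelium summed to 2194 to 4055 CPM in WT mice at 30°C, above every other library. They summed to 1460 to 1609 CPM in WT mice at 8°C, and in HY/HY mice to 595 to 1645 CPM at 30°C and 839 to 1381 CPM at 8°C. Comparisons with WT mice at 30°C thus also differ in these markers, and their part in the levels was not tested.

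Of the 10 genes, 9 had enough counts for a test, and the tenth, Tmem26, is given by its counts. A gene was called at a Benjamini-Hochberg adjusted p under 0.05 in edgeR's quasi-likelihood test, over 16540 genes, with a change of more than 1.5-fold. Cold called 0 of the 9 genes in WT mice, where 17.2% of all genes were called, and 0 of 9 in HY/HY mice, where 0.248% of all genes were called. The genotypes differed in 0 of 9 at 30°C, beside 0.998% of all genes, and in 1 of 9 at 8°C, beside 5.85% of all genes. That gene was Tnfrsf9, lower in HY/HY mice. It had 20 to 31 counts in each WT library and 3 to 13 in each HY/HY library. It passed the filter on counts through the WT libraries, where it is high. The interaction, which is the cold response in HY/HY mice minus that in WT mice, was called at an adjusted p under 0.05 alone in 0 of 9, beside 2.24% of all genes. At an unadjusted p under 0.05 the numbers were 2, 0, 2, 3 and 1 of 9 in the same order, beside 38.4%, 14.7%, 18.6%, 22.4% and 15% of all genes. DESeq2 called 0, 0, 1, 3 and 0 of 9, beside 18.8%, 1.9%, 4.02%, 8.2% and 4.89% of all genes. With the replicate number as a block, cold called 0 of 9 in HY/HY mice, beside 0.967% of all genes. The plot of levels by library shows all 10 genes.

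**Figure D1:**
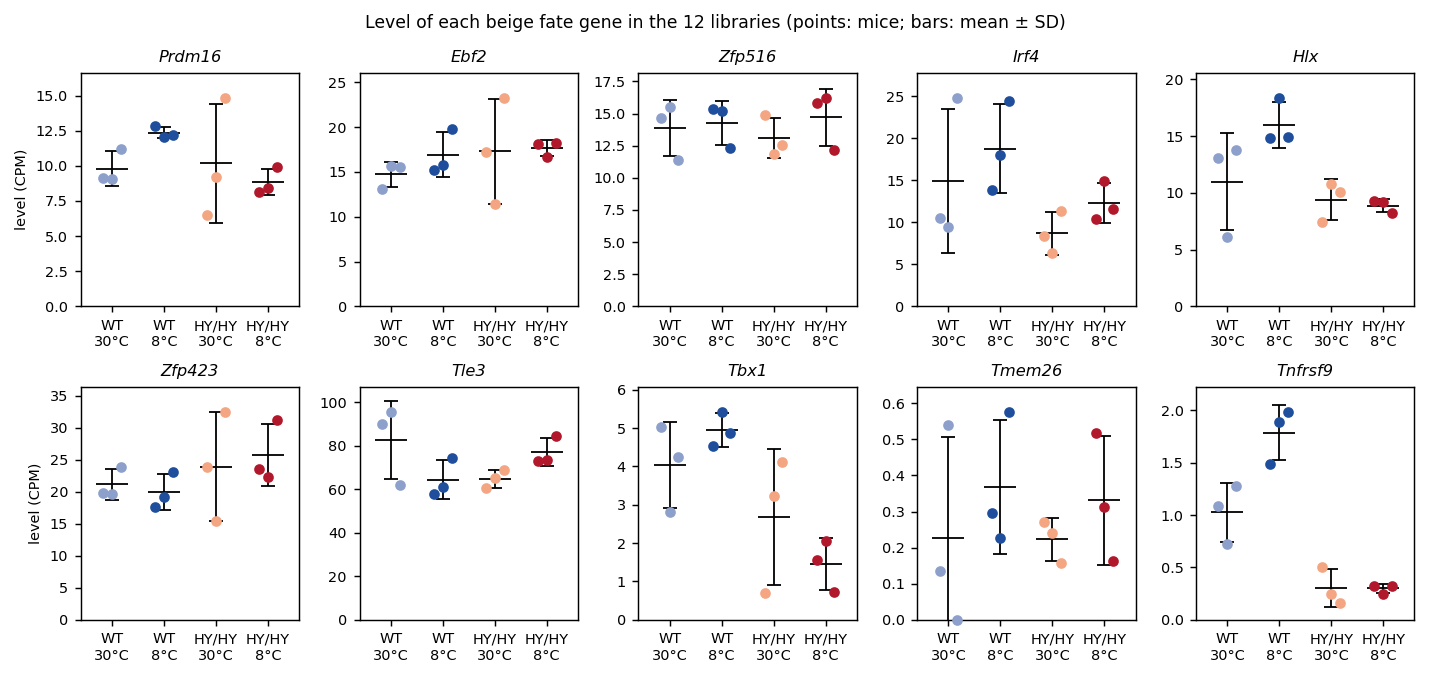
Level in CPM (vertical axes, each from 0) of the 10 genes in 12 libraries, by genotype and temperature; points are mice in replicate order, and bars are the mean ± SD of 3. Tnfrsf9 sits at 0.722 CPM or above in every WT library and at 0.504 CPM or below in every HY/HY library, while Zfp516 overlaps between all groups.

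Prdm16 (ENSMUSG00000039410.16, chromosome 4 from 154316122 to 154637360 on GRCm38.p6) stood at 9.16, 9.06 and 11.2 CPM in the 3 WT mice at 30°C and at 12.9, 12.1 and 12.2 CPM at 8°C. In the mutants it stood at 6.51, 9.23 and 14.8 CPM at 30°C and at 8.16, 8.44 and 9.91 CPM at 8°C. The WT libraries at 8°C thus lay above those at 30°C and above the mutant libraries at 8°C, without overlap, and the mutant libraries at 30°C spanned all other groups. The log2 fold change was 0.34 (SE 0.24, adjusted p = 0.325) by cold in WT mice and -0.49 (SE 0.24, adjusted p = 0.265) for HY/HY against WT mice at 8°C. The 95% interval of the latter ran from -1.02 to 0.04 and so included 0.

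Hlx (ENSMUSG00000039377.7, chromosome 1 from 184727143 to 184732493) stood at 13.1, 6.10 and 13.8 CPM in WT mice at 30°C and at 14.8, 18.3 and 14.9 CPM at 8°C. In the mutants it stood at 7.40, 10.8 and 10.03 CPM at 30°C and at 9.26, 9.19 and 8.20 CPM at 8°C. At 8°C every mutant library lay below every WT library. The fitted difference there was a log2 fold change of -0.85 (SE 0.27, 95% interval -1.43 to -0.27), 1.80-fold lower, and it missed the adjusted threshold (adjusted p = 0.0783). By cold the log2 fold change of Hlx was 0.55 (SE 0.26, adjusted p = 0.143) in WT mice and -0.08 (SE 0.26, adjusted p = 0.918) in HY/HY mice, and the interaction was -0.63 (SE 0.37, adjusted p = 0.46). The lowest WT library at 30°C was replicate 2, the library with the muscle markers. Without that library, Hlx was called at 8°C (adjusted p = 0.0125). It is not part of the 8°C comparison, where the log2 fold change stayed at -0.85. Over the alternatives the adjusted p at 8°C ran from 0.00447 to 0.235, the highest without WT replicate 2 at 8°C.

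Irf4 (ENSMUSG00000021356.10, chromosome 13 from 30749233 to 30766981) stood at 10.6, 9.45 and 24.8 CPM in WT mice at 30°C and at 13.9, 17.95 and 24.4 CPM at 8°C. In the mutants it stood at 8.41, 6.34 and 11.4 CPM at 30°C and at 10.4, 14.9 and 11.6 CPM at 8°C. WT replicate 3 was the highest of its group at each temperature, and the genotypes overlapped at each temperature. The log2 fold change for HY/HY against WT mice was -0.78 (SE 0.36, adjusted p = 0.269) at 30°C and -0.61 (SE 0.36, adjusted p = 0.355) at 8°C. Without WT replicate 3 at 30°C, the log2 fold change by cold in WT mice went from 0.34 (adjusted p = 0.517) to 0.91 (adjusted p = 0.0361), past the threshold. Over the alternatives that adjusted p ran from 0.0361 to 0.953. IRF4 is also a factor of lymphocytes. The 12 lymphocyte markers summed to 33.6 CPM in WT replicate 3 at 30°C, the highest of all libraries, but to 8.98 CPM in WT replicate 3 at 8°C, the lowest of its group. The part of these cells in the level of Irf4 was not tested.

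Ebf2 (ENSMUSG00000022053.13, chromosome 14 from 67233292 to 67430952) stood at 14.8 ± 1.40 CPM in WT mice at 30°C, 16.9 ± 2.51 CPM at 8°C, and the mutants had 17.3 ± 5.89 CPM at 30°C and 17.7 ± 0.873 CPM at 8°C. No neighbours in that order differed beyond their spread. The difference between the genotypes at 8°C had a 95% interval from -0.40 to 0.53 on the log2 scale.

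Zfp516 (ENSMUSG00000058881.13) had the narrowest range of the 10 genes relative to its level, from 11.4 to 16.2 CPM over the 12 libraries. Its group means lay between 13.1 ± 1.58 CPM in HY/HY mice at 30°C and 14.7 ± 2.21 CPM in the same genotype at 8°C, a difference smaller than the larger SD. The log2 fold change of Zfp516 by cold was 0.04 in WT mice, with a 95% interval from -0.32 to 0.40, and 0.17 in HY/HY mice, with an interval from -0.19 to 0.53. These intervals leave out a change of 1.5-fold in either direction.

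Zfp423 (ENSMUSG00000045333.15, chromosome 8 from 87661810 to 87962053), the repressor of EBF2, was found in WT mice at 21.1 ± 2.40 CPM when kept at 30°C and at 19.98 ± 2.82 CPM when kept at 8°C. In the mutants the levels were 23.9 ± 8.57 CPM and 25.7 ± 4.83 CPM, so all 4 means lay within the spread of the mutants at 30°C. Its log2 fold change between the genotypes was 0.18 (SE 0.23, adjusted p = 0.738) at 30°C and 0.36 (SE 0.24, adjusted p = 0.408) at 8°C.

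Tle3 (ENSMUSG00000032280.16, chromosome 9 from 61372326 to 61418497), the corepressor, had the most counts of the 10 genes, at least 776 in each library. It stood at 89.9, 95.6 and 62.0 CPM in WT mice at 30°C and at 57.7, 61.0 and 74.5 CPM at 8°C, and the groups overlapped. In the mutants it stood at 60.4, 65.1 and 68.8 CPM at 30°C and at 73.0, 73.5 and 84.4 CPM at 8°C, and the groups did not overlap. The log2 fold change by cold was -0.36 (SE 0.16, adjusted p = 0.115) in WT mice and 0.25 (SE 0.16, adjusted p = 0.494) in HY/HY mice. The difference of these responses was 0.61 (SE 0.22, 95% interval 0.12 to 1.09), which did not pass over all genes (adjusted p = 0.218). WT replicate 3 at 30°C had the lowest level of its group, and without that library the interaction of Tle3 was larger, at 0.77 (adjusted p = 0.0355). In WT mice at 30°C the markers of mammary epithelium summed to 2647, 4055 and 2194 CPM in replicate order. In each other group these markers were highest in replicate 2 and Tle3 in replicate 3. Their part in the level of Tle3 was not tested.

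The spread within HY/HY mice at 30°C was wide for several of these regulators: the SD was 41.6% of the mean for Prdm16, 35.8% for Zfp423 and 34.0% for Ebf2. Replicate 3 was the highest for all of them, at 14.8, 32.5 and 23.2 CPM. In that library the adipocyte markers summed to 48641 CPM, against 27058 and 18052 CPM in the other mice of the group. The markers of mammary epithelium, cells of the ducts that run through this fat pad in females, summed to 595 CPM there, against 1566 and 1645 CPM. In replicate 1, where Prdm16 was lowest, markers of progenitors and fibroblasts summed to 1279 CPM and those of macrophages to 435 CPM, the highest of all libraries. The part of this cell make-up in the levels was not tested. Between the genotypes at 30°C the log2 fold change of Prdm16 was 0.05 (adjusted p = 0.94), and it ranged from -0.31 to 0.29 over the alternatives.

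**Figure D2:**
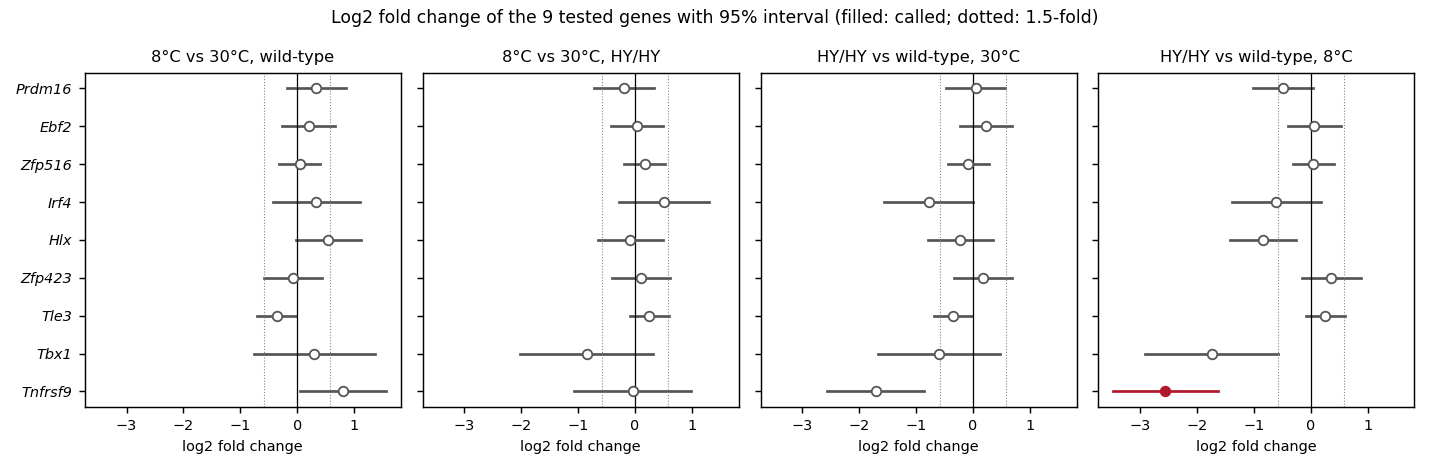
Log2 fold change (horizontal axes) of the 9 tested genes in 4 comparisons; points are the fitted values of edgeR, lines their 95% intervals, dotted lines a change of 1.5-fold, and filled red points are called. Only Tnfrsf9 between the genotypes at 8°C is called, and the intervals of Hlx and Tbx1 in that comparison lie below 0. Tnfrsf9 entered the test through the WT libraries, where it is high.

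Tnfrsf9 (ENSMUSG00000028965.13, chromosome 4 from 150920155 to 150946104) encodes the surface receptor CD137, used to sort beige cells and known from activated T cells and NK cells as a costimulatory receptor. It stood at 1.09, 0.722 and 1.28 CPM in WT mice at 30°C and at 1.49, 1.89 and 1.99 CPM at 8°C. In the mutants it stood at 0.504, 0.241 and 0.156 CPM at 30°C and at 0.324, 0.250 and 0.325 CPM at 8°C. Each mutant library thus lay below each WT library at its temperature, and cold separated the libraries of WT mice but not those of HY/HY mice. At 8°C the log2 fold change for HY/HY against WT mice was -2.56 (SE 0.42, 95% interval -3.48 to -1.64), 5.90-fold lower (adjusted p = 0.00516). At 30°C it was -1.71 (SE 0.39, adjusted p = 0.0593), or -2.28 and called without mutant replicate 1 at 30°C (adjusted p = 0.0231), and the difference between the temperatures, the interaction, was -0.85 (SE 0.59, adjusted p = 0.536).

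These levels rest on few counts. The WT libraries held 20 to 31 counts of Tnfrsf9 each, the mutant libraries at 30°C 13, 7 and 3, and those at 8°C 5, 4 and 4. A filter of at least 10 counts in every library left Tnfrsf9 out of the test. In the other alternatives it was called at 8°C each time, with adjusted p from 0.000127 to 0.0303. The default filter dropped Tnfrsf9 where only the HY/HY libraries were used. It thus entered these tests through the WT libraries, where it is high. Averaged over both temperatures, a contrast chosen after the values were seen, Tnfrsf9 was 4.39-fold lower in HY/HY mice (log2 fold change -2.14, SE 0.29, adjusted p = 0.00386), lower in 6 of 6 mutant libraries, where 4.37% of all genes were called and 1 of the 9. By cold, the log2 fold change was 0.81 (SE 0.35, adjusted p = 0.109) in WT mice and -0.04 (SE 0.47, adjusted p = 0.98) in HY/HY mice. Tnfrsf9 stands on a list of direct targets that the study chose with these libraries, so that list is not independent evidence for its direction.

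Markers of the immune cells that carry CD137 were read in the same libraries. The 4 markers of regulatory or activated T cells summed to 1.81 to 3.57 CPM in WT mice and 4.14 to 5.60 CPM in HY/HY mice at 8°C, and to 2.67 to 4.94 CPM and 4.15 to 4.52 CPM at 30°C. The other 3 of these 4 genes had too few counts for a test, and Il2ra was higher in the mutants at 8°C (by 1.35 on the log2 scale, SE 0.32, adjusted p = 0.0266). The 8 markers of NK cells and innate lymphoid cells summed to 55.2 to 83.1 CPM in WT mice and 58.8 to 94.96 CPM in HY/HY mice at 8°C. At 30°C they summed to 155 to 264 CPM in WT mice and 42.2 to 135 CPM in HY/HY mice. The median log2 fold change of the 8 genes between the genotypes at 30°C was -0.04, and 0 were called, beside 0.998% of all genes. In the same libraries the markers of mammary epithelium summed to 2194 to 4055 CPM in WT mice and 595 to 1645 CPM in HY/HY mice. Replicate 2 was the highest of its group for both sums in each group. Which cells the RNAs of the NK cell list came from was not tested. The 12 lymphocyte markers overlapped between the genotypes, with 8.98 to 16.1 against 9.50 to 14.4 CPM at 8°C. Macrophage markers summed to 180 to 187 CPM in WT mice and 271 to 379 CPM in HY/HY mice at 8°C. The part of any of these cells in the level of Tnfrsf9 was not tested. Tnfsf9, the ligand of CD137, was not called, with a log2 fold change of -0.31 (SE 0.52, adjusted p = 0.775) between the genotypes at 8°C.

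**Figure D3:**
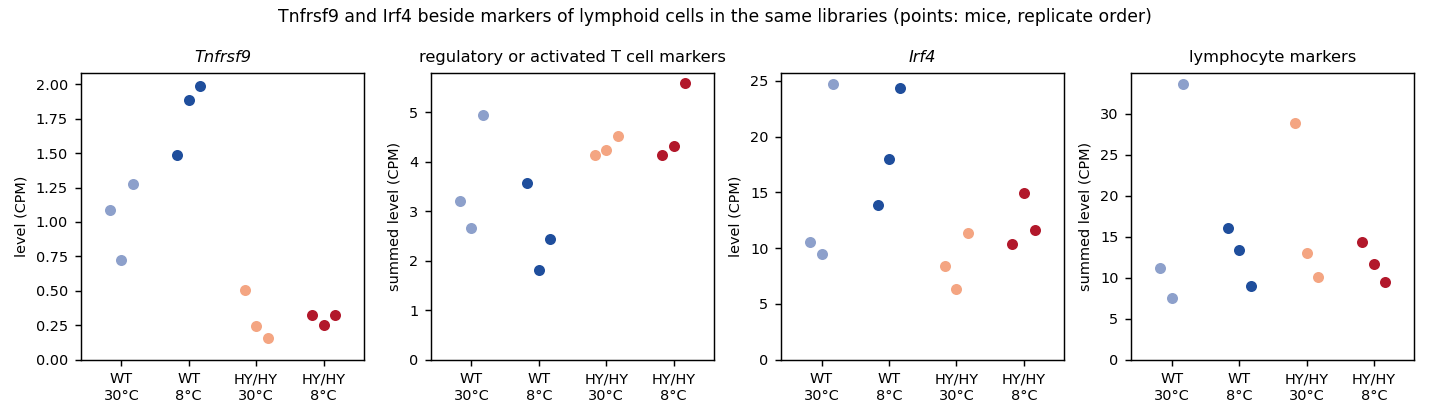
Level of Tnfrsf9 and Irf4 and summed level of marker lists (vertical axes, CPM, from 0) in the 12 libraries, points being mice in replicate order. At 8°C the 4 T cell markers, 3 of them too low to test, sum to 4.14 to 5.60 CPM in the mutants and 1.81 to 3.57 CPM in WT mice; their part in the level of Tnfrsf9 was not tested.

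Tbx1 (ENSMUSG00000009097.10, chromosome 16 from 18580979 to 18590671), a T-box factor used as a marker of beige cells, stood at 5.03, 2.81 and 4.25 CPM in WT mice at 30°C and at 4.53, 5.43 and 4.88 CPM at 8°C. In the mutants it stood at 0.697, 3.24 and 4.11 CPM at 30°C and at 1.55, 2.06 and 0.731 CPM at 8°C. At 8°C the mutant libraries all lay below the WT libraries, and at 30°C replicate 1 of the mutants, with 18 counts, lay apart below the other libraries. The log2 fold change at 8°C was -1.74 (SE 0.54, 95% interval -2.91 to -0.58), 3.35-fold lower, with an adjusted p of 0.0721, and at 30°C it was -0.60 (SE 0.49, adjusted p = 0.555). Without that mutant library at 30°C, Tbx1 was called at 8°C (adjusted p = 0.0117). That library is not part of the 8°C comparison, where the log2 fold change stayed at -1.74. Over the alternatives the adjusted p at 8°C ran from 0.00747 to 0.227, the highest without mutant replicate 3 at 8°C.

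Tmem26 (ENSMUSG00000060044.8, chromosome 10 from 68723746 to 68782655), a surface protein of beige cells, had 0 to 15 counts in each library and 66 counts in all. Its 3 libraries held 18 counts together in WT mice at 30°C, 16 at 8°C, 17 in HY/HY mice at 30°C and 15 at 8°C. WT replicate 3 at 30°C had 0 counts, which allows a level of up to 0.159 CPM by counting error alone. A difference in Tmem26 was not detectable at this depth.

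Libraries of the compared groups did not overlap for 3 of the 10 genes by cold in WT mice (Prdm16, Hlx and Tnfrsf9), where that was so for 43.4% of the genes tested. By cold in HY/HY mice it was so for 1 of 10 (Tle3), beside 18.3%, and between the genotypes at 30°C for 1 of 10 (Tnfrsf9), beside 18.3%. At 8°C it was so for 4 of 10 (Prdm16, Hlx, Tbx1 and Tnfrsf9), each lower in HY/HY mice, beside 35.4%. With 3 libraries a side, the exact permutation test (two-sided) cannot give a p below 0.1, the value each of these genes reached. The shares of all genes count tested genes only, and Tmem26 was not tested. Of the 9 tested genes the numbers were 3, 1, 1 and 4 in the same order. The share at 8°C was near that of all genes and somewhat above it, and the others were below. The median log2 fold change of the 9 tested genes at 8°C was -0.49, against 0.01 over all genes, and by cold in WT mice it was 0.30, against -0.07. The 9 values ran from -2.56 to 0.36 at 8°C and from -0.36 to 0.81 by cold in WT mice, on both sides of 0. The median at 8°C is the value of Prdm16, whose interval included 0.

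The starts of the genes that were lower in every mutant library at 8°C and whose interval lay below 0 are shown next. These genes were chosen from the results above, and only Tnfrsf9 of them was called. Histone methylation was not measured in these libraries. Each window holds 100 bases before the start site in lower case and the first 20 transcribed bases in capitals, 5′ to 3′ on the gene's strand, from RefSeq on GRCm38.p6. The Tnfrsf9 windows lie at chr4:150920055-150920174 and chr4:150927899-150928018 on the plus strand. The Hlx window lies at chr1:184732474-184732593 and the Tbx1 window, of the farther upstream of its starts, at chr16:18590652-18590771, each on the minus strand.
Tnfrsf9 first start: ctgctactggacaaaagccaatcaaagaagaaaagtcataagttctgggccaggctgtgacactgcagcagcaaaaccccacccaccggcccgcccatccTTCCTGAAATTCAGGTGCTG
Tnfrsf9 second start: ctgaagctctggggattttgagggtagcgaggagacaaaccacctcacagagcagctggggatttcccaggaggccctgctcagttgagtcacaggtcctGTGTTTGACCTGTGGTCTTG
Hlx: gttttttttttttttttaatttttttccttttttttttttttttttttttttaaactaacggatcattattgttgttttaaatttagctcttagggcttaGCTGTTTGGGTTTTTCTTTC
Tbx1: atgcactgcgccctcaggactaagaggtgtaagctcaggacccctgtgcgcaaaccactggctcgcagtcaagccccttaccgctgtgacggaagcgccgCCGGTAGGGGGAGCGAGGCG

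RefSeq gave 11 such promoters of 300 bases for 8 of the 10 genes, and none was given for Ebf2 and Zfp516. Their GC content ran from 44.3% for Hlx to 69.0% for the downstream start of Tbx1, against a median of 52.7% over 32851 promoters. Motifs were searched on both strands. The nuclear receptor hexamer AGGTCA was found at the second start of Tnfrsf9, 5 bases after the start site, and at a start of Zfp423, and is held by 16.3% of all promoters. The pair CCCNNGGG, the core bound by EBF factors, was found at Zfp423 and Tmem26 and is held by 13.7%. The interferon response element GAAANNGAA and the cAMP response element TGACGTCA were found in 0 of the 11, and are held by 8.56% and 1.79% of all promoters. These matches describe letters only.

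Beside the 10 genes, other regulators of the same fate were read from lists. Of 19 tested activators, 6 rose by cold in WT mice, where 10.3% of all genes were called higher and 6.84% lower, and 0 fell. Ppara, the nuclear receptor of fat oxidation, rose by 2.99 (SE 0.48, adjusted p = 0.00115) and Ppargc1a, the coactivator of mitochondrial biogenesis, by 2.72 (SE 0.35, adjusted p = 0.000298) on the log2 scale. In HY/HY mice 0 of these 19 were called by cold, beside 0.248% of all genes. At 8°C, 5 of the 19 were lower in HY/HY mice, where 4.34% of all genes were called lower and 1.51% higher. Ppara fell by 2.13 (SE 0.46, adjusted p = 0.0181) and Cebpb, the partner of PRDM16, by 1.87 (SE 0.29, adjusted p = 0.00356). The interaction was called for Ppargc1a (-2.19, adjusted p = 0.039) and Cebpb (-1.96, adjusted p = 0.031), beside 2.24% of all genes. Of 11 tested repressors 0 were called in any of the 5 comparisons. The shares of all genes were 17.2% and 0.248% by cold in WT and HY/HY mice. Between the genotypes they were 0.998% at 30°C and 5.85% at 8°C, and for the interaction 2.24%. Among these regulators, the calls fell on PPAR and PGC-1 family genes, Esrra, Dpf3 and Cebpb. Ppara, Ppargc1a and Ppargc1b stand on the list of direct targets that the study chose with these libraries. By edgeR none of the 5 activators described above was called, too few genes to set apart from the shares of all genes. Hlx was called at 8°C by DESeq2 (adjusted p = 0.0278) and by edgeR with only the libraries compared (adjusted p = 0.00447).

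The products of the thermogenic program were read in the same fit. Of 12 genes of thermogenic output, 12 rose by cold in WT mice with a median log2 fold change of 5.24, beside 10.3% of all genes. In HY/HY mice 5 rose, with a median of 2.42 over the 12, where 0.248% of all genes were called. At 8°C, 11 of the 12 were lower in HY/HY mice (median -2.47), beside 4.34% of all genes. Dio2, the deiodinase that activates thyroid hormone, was at -1.16 (SE 0.71, adjusted p = 0.374). The study had reported Ucp1, Cidea and Cpt1b as raised by cold in these libraries. Ucp1, Cidea, Elovl3, Cox8b, Fabp3, Pdk4 and Gk stand on its list of direct targets, which was chosen with these libraries. The directions of these genes here are thus not independent evidence. Ucp1 was at 5048, 5351 and 6055 CPM in WT mice and 611, 904 and 212 CPM in HY/HY mice at 8°C. In those same libraries Prdm16 ran from 12.1 to 12.9 CPM and from 8.16 to 9.91 CPM, and Hlx from 14.8 to 18.3 CPM and from 8.20 to 9.26 CPM. Tbx1 and Tnfrsf9 did not overlap either, while Ebf2, Zfp516, Irf4, Zfp423 and Tle3 did. That made 4 of the 9 tested genes without overlap, near the share of 35.4% of all genes tested.

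**Figure D4:**
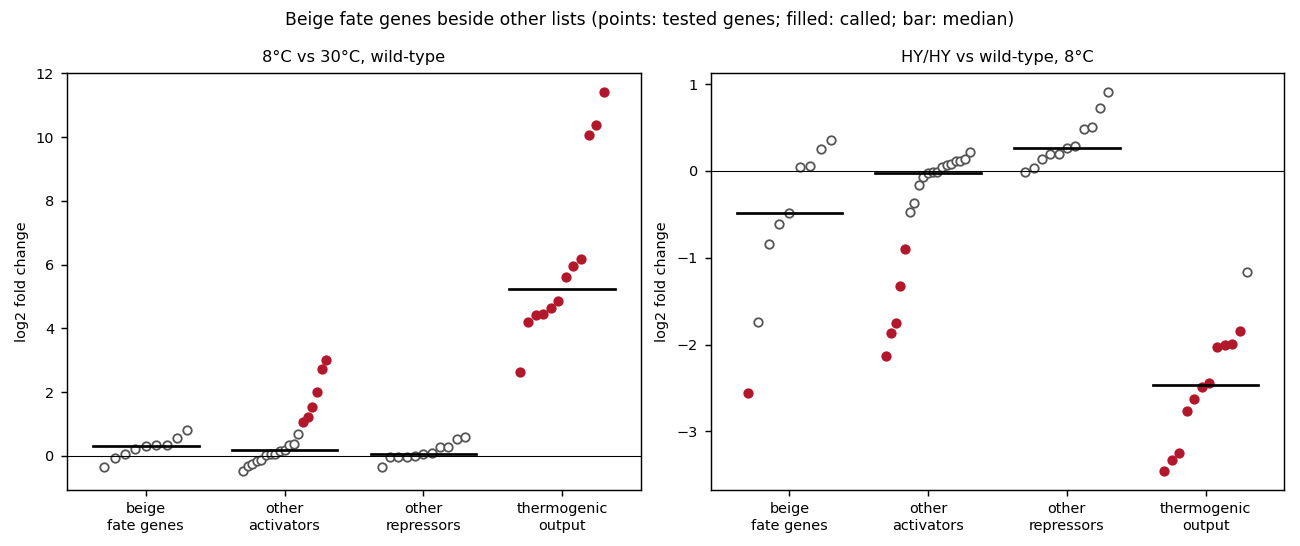
Log2 fold change (vertical axes, different scales) of the 9 tested beige fate genes and 3 other lists, by cold in WT mice (left) and for HY/HY against WT mice at 8°C (right). Points are genes, filled red if called, and bars are medians. On the left 0 of 9 beige fate genes and 12 of 12 output genes are called. Several of the output genes had been reported by the study from these libraries.

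Relatives of the 10 genes were read beside them, 27 of which were tested. By cold in WT mice 1 rose and 4 fell, beside 10.3% of all genes called higher and 6.84% lower. Tle5, a short TLE protein without the corepressor part, rose by 0.70 (SE 0.12, adjusted p = 0.0014), and Tle2, a corepressor related to TLE3, fell by 1.15 (SE 0.24, adjusted p = 0.00533). By cold in HY/HY mice, where 0.248% of all genes were called, 0 rose and 1 fell, the T-box gene Tbx2 (log2 fold change -1.03, SE 0.13, adjusted p = 0.0107). At 8°C, 1 was higher and 3 were lower in HY/HY mice, beside 1.51% and 4.34% of all genes. Tbx5 fell by 1.38 (SE 0.24, adjusted p = 0.00655), and Tbx15, a T-box factor of adipocytes, rose by 0.87 (SE 0.15, adjusted p = 0.00713). The interaction was called for Tle5 (-0.78, adjusted p = 0.0327) and Tbx2 (-1.10, adjusted p = 0.0146), beside 2.24% of all genes. Ebf1 and Ebf3 were called in none of the comparisons.

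The genes with the pattern most like each of the 9 tested genes were found as those with the smallest root mean square difference of centred log2 CPM over the 12 libraries, a description with no test. For Prdm16 they were Pnkd, Cenpb and Mpnd (0.15 to 0.18, against 0.31 for the size of the pattern itself), and for Hlx they were Ddhd2, Tbkbp1 and 1110038D17Rik (0.20 to 0.21, against 0.45). For Irf4 they were Fam117a, H1fx and Car4 (0.23 to 0.30, against 0.56). For Ebf2 they were S100a10, Anxa5 and 2410022L05Rik, for Zfp516 Stk24, Asxl2 and Tubgcp4, for Zfp423 Pon2, Agbl3 and Grb10, and for Tle3 Wdr60, Cab39l and Epm2aip1, all within 0.13, against pattern sizes of 0.25, 0.18, 0.30 and 0.23. For Tbx1 they were Slc26a10, Mapt and Cox6b2 (0.51 to 0.61, against 0.95), and for Tnfrsf9 they were Lect1, Ripk3 and Accn3 (0.46 to 0.52, against 1.03).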

How the data were processed

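The authors trimmed read pairs with fastp, used STAR for alignment to mm10, and deposited raw counts per gene (GENCODE M25 IDs) for each strand and both together. The counts of the sense strand were used. IDs were matched to symbols for 32589 of 55401 genes, and 2645 with shared symbols stayed unnamed. The 4 entries that name no gene held 55.8% to 63.5% of the read pairs and were left out. Multi-mapping pairs entered no gene, which lowers the counts of genes with near-identical copies.

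Genes were kept by filterByExpr of edgeR 4.0.16 (R 4.3.3) with its defaults, which left 16540. One quasi-likelihood model with 4 group means and TMM factors (0.859 to 1.17) and no covariate was fitted to the 12 libraries (8 residual degrees of freedom). The p-values are two-sided. SEs were derived from the F statistic. The study compared FPKM values made from the same reads by tests of means between groups; the counts were fitted here with a test made for counts. The deviations of same-numbered libraries from their group means were checked for correlation over genes. In HY/HY mice all 3 pairs across temperatures exceeded 0.1 (0.11 to 0.30), so that comparison is also given with the replicate block; this pairing comes from the data, not from the labels. The model was tested on simulated data. The intervals for counts of 0 cover counting error only. The labels do not say whether mice of a group shared a litter or a cage history.

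The 10 genes and all lists were chosen with earlier results of these data known. All 10 genes are named, and of each other list the counts of calls and the 2 largest called changes, beside Kdm3a and relatives; genes named beyond this (Ucp1, Dio2, Tnfsf9, Il2ra, Ebf1, Ebf3, Esrra and Dpf3) were chosen after their values were seen. Alternatives were DESeq2 1.42.0, other scalings and filters, both strands together, only the libraries compared, a replicate block and each library left out in turn.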

Additional observations from a re-analysis of the deposited data

How the results depend on the processing

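The number of the 9 genes called by cold in Jmjd1a HY/HY mice stayed 0 under all 22 alternatives. By cold in WT mice it was 0, but 1 (Tle3) with library totals, which moved the median of all genes to -0.41 and called 31.1% of them against 17.2%, and 0 to 1 when a library was left out (Irf4 without WT replicate 3 at 30°C). Between the genotypes at 30°C it was 0, but 1 (Tnfrsf9) without a filter, with DESeq2 and with the replicate block, beside 1.83%, 4.02% and 3.1% of all genes against 0.998%, and 0 to 1 with a library left out (Tnfrsf9 without Jmjd1a HY/HY replicate 1). At 8°C it was 1, beside 5.85% of all genes, but 2 without a filter (Tbx1 also), beside 3.66%, 3 with DESeq2, beside 8.2%, and 3 with only the libraries of the comparison, beside 10.6% (Hlx and Tbx1 also), 0 with at least 10 counts in every library, and 1 to 2 with a library left out (Hlx also without WT replicate 2 at 30°C, Tbx1 also without Jmjd1a HY/HY replicate 1 at 30°C). The interaction was 0 to 1 with a library left out (Tle3 without WT replicate 3 at 30°C). The cause of these changes was not tested, except that the filter of 10 counts removes Tnfrsf9 itself. Where leaving out a 30°C library added Hlx or Tbx1 at 8°C, that library was not in the comparison. Their log2 fold changes stayed at -0.85 and -1.74. No called value changed sign. Same-numbered libraries deviated together in part: r exceeded 0.1 in 11 of 18 such pairs (from -0.07 to 0.35) and in 5 of 36 pairs of different numbers. All 3 pairs exceeded it only between the HY/HY groups, and the labels do not say that numbers pair mice. The block changed no call by cold or in the interaction. It added 1 call at 30°C, that of Tnfrsf9 (-1.70 on the log2 scale, adjusted p = 0.0474), and none at 8°C. Depth limits Tmem26 and Tnfrsf9 most.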

Other observations

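Other markers of fat depots were read in the same fit. Of all genes, 10.3% were called higher and 6.84% lower by cold in WT mice. Between the genotypes, 0.998% were called at 30°C, and 1.51% were higher and 4.34% lower in HY/HY mice at 8°C. Of 8 listed markers of white depots 7 had enough counts, and Lep, the satiety hormone of white adipocytes, and Nnat were lower by cold in WT mice (log2 fold change -1.38 with adjusted p = 0.0494, and -3.23 with adjusted p = 0.0335, in edgeR's test). At 8°C, 3 of the 7 were higher in Jmjd1a HY/HY mice, among them Agt, the precursor of angiotensin (3.08, SE 0.67, adjusted p = 0.0185), and Lep (1.99, SE 0.47, adjusted p = 0.0266). Of 8 other beige markers, 0 rose and only Cited1 fell by cold in WT mice (-1.54, SE 0.45, adjusted p = 0.0278), and 0 were called between the genotypes at either temperature. Of 4 tested markers of brown depots, Epsti1 fell by cold in WT mice (-0.66, SE 0.20, adjusted p = 0.0332), and 0 were called between the genotypes.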
